A study of Mus musculus with 4 samples.

Results

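The 9 genes studied here mark GABAergic interneurons, and they were followed from total RNA into RNA bound by the ribosomal protein RPS2 in cultured mouse cortical neurons. The members were named by gene symbol, and all 9 of 9 were found among the 31053 genes of the count tables. They fall into 3 genes of GABA synthesis and transport (Gad1, Gad2 and Slc32a1) and 6 transcription factor genes (Dlx1, Dlx2, Dlx5, Dlx6, Lhx6 and Sp9).

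The samples were 2 RPS2 IP libraries and 2 total RNA libraries, made from cortical neurons of wild-type mice in primary culture. In enhanced crosslinking and immunoprecipitation (eCLIP), RNA is crosslinked to protein in the cell, and the fragments that come down with an antibody are sequenced. Total RNA was taken from samples ahead of the immunoprecipitation. Each IP library has a total RNA library of the same replicate number, called a pair here. That both libraries of a pair share a sample is inferred from their numbers. No group carried a mutation or a drug treatment by its labels, but rRNA depletion is given for the IP libraries alone, so its effect and that of the IP cannot be told apart. Per the study's culture methods, neurons came from the cortices of embryonic C57BL/6J mice, and floxuridine, an agent against dividing cells, was used on such cultures.

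GABAergic interneurons are the inhibitory cells of the cortex. They are born in the ganglionic eminences, below the cortex, and migrate into it. GABA is made from glutamate by glutamate decarboxylase, which Gad1 and Gad2 encode, and is loaded into synaptic vesicles by the transporter VGAT, the product of Slc32a1. DLX homeodomain proteins act early in these cells and their progenitors, LHX6 in those born in the medial eminence, and SP9 is a zinc finger protein of the same lineages. Most of these factors are also active in progenitors of striatal projection neurons, which make GABA as well.

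RPS2 belongs to the small ribosomal subunit, the part of the ribosome that reads an mRNA from its 5′ end until it meets a start codon. The start codon surroundings of the 9 mRNAs are therefore shown. Each window is the mRNA strand of 1 GENCODE M21 transcript, 21 bases written 5′ to 3′ with T for U, and lies in a single exon. Capitals mark the start codon, the base just after it and the third base before it, since the consensus around start codons has a purine before and G after.

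Gad1: accaccgagCtgATGGcatct
Gad2: ctagcagaaCccATGGcgtct
Slc32a1: cccgccgccGccATGGccacc
Dlx1: ccgcgagaaGagATGAccatg
Dlx2: tcccgggtcAggATGActgga
Dlx5: cgcccgggaGctATGAcagga
Dlx6: cccaaagttTtgATGAtgacc
Lhx6: gctcccgggCccATGTactgg
Sp9: ccaaaacctGctATGGccacg

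In mm10 the windows lie at chr2:70563820-70563840 for Gad1, chr2:22622651-22622671 for Gad2, chr2:158611230-158611250 for Slc32a1, chr2:71529982-71530002 for Dlx1, chr6:6863368-6863388 for Dlx6 and chr2:73272059-73272079 for Sp9, on the plus strand. On the minus strand they lie at chr2:71546384-71546404 for Dlx2, chr6:6881878-6881898 for Dlx5 and chr2:36105199-36105219 for Lhx6.

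A purine stood at the third base before the start codon in 5 of 9 members, against 86.8% of the 11863 tested coding genes whose window could be read. G stood after it in 4 of 9, against 52.9% of those genes. Slc32a1 and Sp9 had both, as did 45.9% of tested genes, while Lhx6 and Dlx6 had neither, as did 6.22%. The 3 genes of GABA synthesis and transport all carried the G, and of the transcription factors Sp9 alone did. Leaders also differed. The 5′ untranslated region of Dlx1 ran over 1881 bases, longer than in 99.9% of 12151 tested genes, and held 20 upstream ATG triplets, whereas that of Dlx6 had 46 bases and that of Lhx6 64, each with 0 such triplets. The median over tested genes was 177 bases. Sp9 stood out in base composition, with 71.1% GC in its coding region, above 99.4% of tested genes. These letters and lengths are a description of 1 transcript per gene, and which transcripts the cultures used was not tested.

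In the mm10 genome 7 of the members lie on chromosome 2 and 2 on chromosome 6. Gad1 (ENSMUSG00000070880) spans chr2:70553072-70602014 on the plus strand, Gad2 (ENSMUSG00000026787) chr2:22622205-22693874 and Slc32a1 (ENSMUSG00000037771) chr2:158610767-158615748. Dlx1 (chr2:71528113-71533981, plus strand) and Dlx2 (chr2:71543408-71546754, minus strand) face each other across 9.43 kb, and so do Dlx6 (chr6:6863334-6868568, plus) and Dlx5 (chr6:6877805-6882085, minus) across 9.24 kb. Sp9 lies at chr2:73271925-73284706 and Lhx6 at chr2:36081953-36105408. Reads were counted over exons by strand. Stretches of 50 bases shared with the transcripts of another gene made up 4.72% of Dlx6, 1.49% of Gad1, which shares them with its pseudogene Gad1-ps among others, and 1.48% of Lhx6, so that a few reads of these genes could have been left out as ambiguous. For Dlx1, Dlx2, Dlx5 and Slc32a1 the share was 0%. An annotated non-coding RNA, Gm27953, has 72.7% of its bases within the counted exons of Lhx6.

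Library totals ran from 4899718 to 16460545 counts, with the IP libraries the deeper, and a single non-coding gene, Gm42418, held between 15.3% and 42.6% of them. Normalised read counts (CPM, counts scaled to library size) below use edgeR's TMM factors in place of the bare totals, since that gene's share differed so much. Markers of neurons and of astrocytes were both abundant. Slc17a7, the vesicular glutamate transporter of excitatory cortical cells, had 712 and 816 CPM in the IP libraries against 737 and 716 CPM in total RNA, and all 7 pan-neuronal markers passed the count filter. The 11 excitatory cortical neuron markers passed it too, though Neurod1, Neurod6 and Fezf2 lay at 5.12 CPM or below in each library. The 4 dividing cell markers passed it in 0 cases. Striatal projection neuron markers were present at low levels, 10 of 11 passing, with Ppp1r1b between 52.3 and 63.0 CPM and Isl1 at 1 count or 0 in each library. Astrocyte markers were abundant, and they set the replicates apart, as described further on.

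Both genes of glutamate decarboxylase were well expressed. Gad1 had 483 and 538 CPM in the IP libraries against 423 and 538 CPM in total RNA, replicate 1 first. Gad2 had 189.5 and 175.5 CPM in the IP against 159.7 and 160.1 CPM in total RNA. Slc32a1 had 509 and 341 CPM in the IP against 466 and 374 CPM in total RNA. The label of GABAergic neurons is thus met by both defining markers in each of the 4 libraries. In bulk RNA a smaller number of such cells and less RNA per cell cannot be told apart.

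Transcription factor mRNAs had far fewer counts. Dlx1 had 22.6 and 9.43 CPM in the IP libraries against 28.3 and 8.38 CPM in total RNA. For Sp9 the values were 17.9 and 6.65 CPM in the IP against 22.7 and 12 CPM in total RNA. Dlx2 (16.7 and 12.7 CPM after IP, 16.3 and 13.3 CPM before it) and Lhx6 (14.8 and 12.5 CPM, then 15.1 and 11.7) varied less. Dlx5 had 8.53 and 7.19 CPM in the IP against 6.01 and 8.38 in total RNA, and Dlx6 5.20 and 2.34 against 3.56 and 3.62. Behind these values stood 16 to 313 counts per library, against 717 to 7037 counts for the genes of synthesis and transport.

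To compare genes with each other, CPM was divided by the length in kb of all counted exons of a gene. That length was 7639 bases for Gad1 and 2797 for Slc32a1, while their transcripts used for the windows above have 3355 and 2797. The order of genes can therefore change with the length used, and an order by transcript length was not computed. In total RNA Slc32a1 came first with 150.2 ± 23.4 CPM per kb (SD, n = 2), followed by Gad1 with 62.9 ± 10.7 and Gad2 with 27.2 ± 0.0537. Slc17a7 had 135 CPM per kb on the same scale. On this scale each of these 3 members stood above the next in 4 of 4 libraries. Dlx2 led the factors with 5.18 ± 0.728 CPM per kb, also above the next in all 4, although the range of Dlx1 reached into its own. The middle of the order was not resolved. Sp9 (3.44 ± 1.5), Dlx1 (3.40 ± 2.61), Dlx5 (3.18 ± 0.741) and Lhx6 (2.79 ± 0.511) had overlapping ranges in total RNA. Dlx6 closed the order with 1.51 ± 0.0159 CPM per kb. Summed per kb, the 3 genes of synthesis and transport exceeded the 6 factors 10.96-fold and 14.2-fold in total RNA and 12.3-fold and 15.6-fold in the IP, for replicates 1 and 2. In the IP the same scale gave 152 ± 42.4 for Slc32a1, 66.8 ± 5.10 for Gad1 and 31.1 ± 1.69 for Gad2, and between 1.59 ± 0.854 (Dlx6) and 5.14 ± 0.999 (Dlx2) for the factors.

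**Figure D1:**
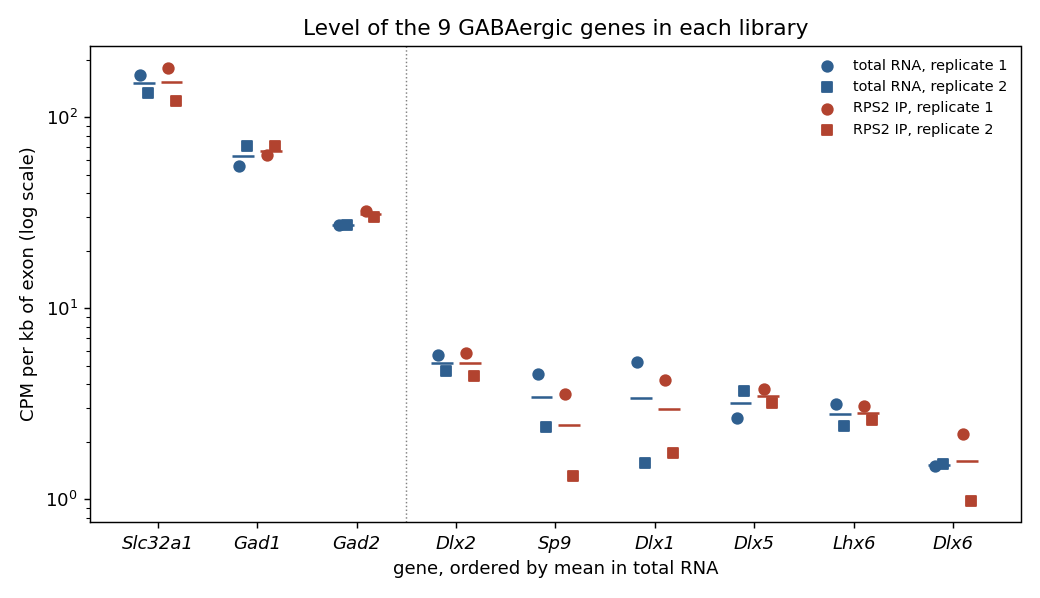
Level of each member in each library, in CPM per kb of exon on a log axis, with total RNA in blue, RPS2 IP in red, circles for replicate 1, squares for replicate 2 and a line at the mean of the 2 libraries. The genes of GABA synthesis and transport, left of the dotted line, lie above 27 CPM per kb, and the factors below 6, with Dlx1 and Sp9 spread most between replicates.

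Between the replicates, Dlx1 and Sp9 differed most among the members in both kinds of library. In total RNA Dlx1 was 3.37-fold higher in replicate 1 than in replicate 2, and in the IP 2.40-fold. Sp9 was 1.89-fold and 2.70-fold higher. Gad2 differed by 1.00-fold in total RNA and 1.08-fold in the IP, and Gad1 was higher in replicate 2, 1.27-fold and 1.11-fold. Summed over the 6 factors, replicate 1 had 1.603 times the CPM of replicate 2 in total RNA and 1.69 times in the IP, whereas the sum over the 3 genes of synthesis and transport gave 0.979 and 1.12. In both kinds of library 4 of 6 factors were higher in replicate 1 and 0 in replicate 2, against 38.4% and 37.4% of all tested genes. With 1 sample on each side this has no test.

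Other interneuron factors leaned the same way. Of the 18 on the list 13 were higher in replicate 1 in both kinds of library and 3 in replicate 2, among them Maf, a factor of somatostatin and parvalbumin cells of the medial eminence (73.0 and 23.7 CPM in total RNA). Interneuron subtype genes were split, with 9 of 17 higher in replicate 1 in both kinds of library and 8 in replicate 2. Among them Reln, the gene for the secreted protein reelin, had 373 and 172 CPM in total RNA, and the neuropeptide gene Cck 182 and 321. Of 11 excitatory cortical neuron markers 7 were higher in replicate 1 in both kinds of library and 2 in replicate 2. Of 13 genes of migration, synapse and firing these were 10 and 2, and of 7 pan-neuronal markers 2 and 2. Markers of glia also moved with the replicate. Summed CPM of the 7 astrocyte markers was 3624 and 1555 in the IP against 2960 and 1411 in total RNA, with 7 of 7 higher in replicate 1 in both kinds of library, and Gfap at 678 and 114 CPM in total RNA. For the 6 microglia markers the sums were 60.4 and 6.83 in the IP against 60.1 and 4.93 in total RNA, and 4 of the 6 had 0 counts in total RNA replicate 2. Whether glial RNA had a part in the factor levels of replicate 1 was not tested.

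**Figure D2:**
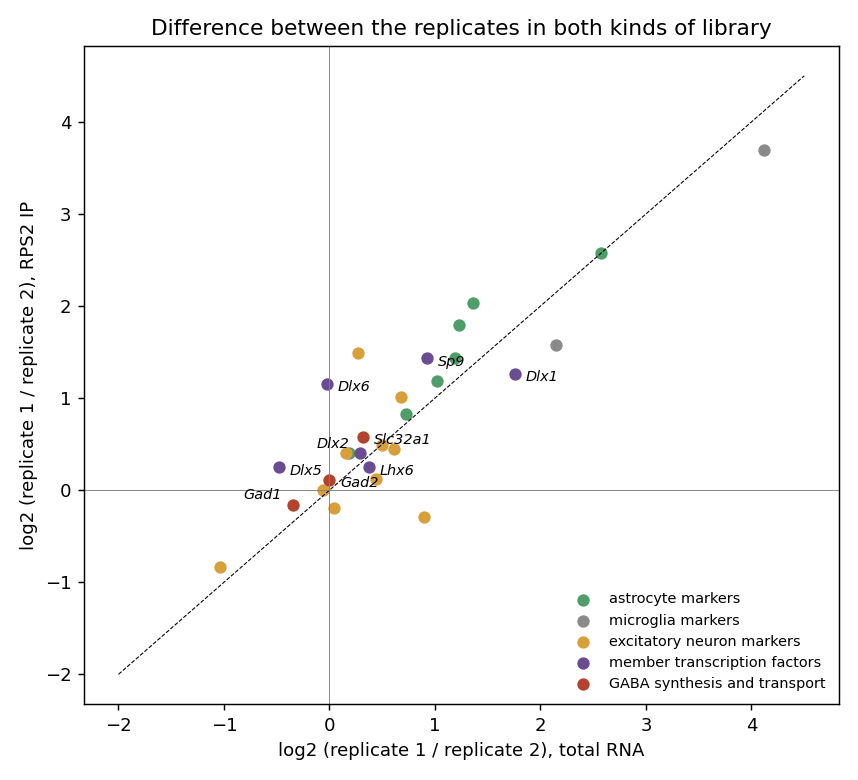
Log2 ratio of replicate 1 to replicate 2 in the RPS2 IP (vertical axis) against that in total RNA (horizontal axis) for the members and for tested astrocyte, microglia and excitatory neuron markers, 1 point per gene with counts in every library, and a dashed line where both ratios are equal. Dlx1 and Sp9 lie at the upper right among most of the astrocyte markers, while Gad1 and Gad2 lie near 0, and Cx3cr1, a microglia marker with 0 counts in 1 library, is not drawn.

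The main question was whether ribosome-bound RNA held more or less of these mRNAs than total RNA did. The study divided IP by total RNA counts per gene as a measure of translational efficiency. Taking libraries of a group as replicates without regard to their number (unpaired), edgeR's quasi-likelihood test with Benjamini-Hochberg adjustment called 0 of 9 members higher and 0 lower in the IP at a threshold of 0.05. It called 0% of the 12336 genes tested higher and 0% lower, with 349 genes at an unadjusted p under 0.05 and 0 members among them. DESeq2 called 0 genes higher and 5 lower, with 0 members. Of 200 genes changed 4-fold in simulated data, the unpaired edgeR fit recovered 0.

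Because same-numbered libraries were taken to come from the same sample, a second fit had the replicate number as a block. It called 6.63% of all tested genes higher and 7.55% lower, and again 0 of 9 members in either direction. In simulated data it recovered 72 of 200 genes changed 1.5-fold and 152 changed 2-fold, with 1 and 7 false calls. Those data kept the replicate differences and took their dispersion from the blocked fit, over genes of all levels. They therefore favour the block by design, and cannot show how well it suits the real counts or the low-count factors. Standard errors of the blocked fit on the log2 scale were 0.098 to 0.101 for the 3 genes of synthesis and transport. For the factors they were 0.192 to 0.393. Among the members 8 of 9 lay within 0.2 of no change on the log2 scale, against 43.7% of tested genes.

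Gad2 had the highest estimate of the members in both main fits, though not in either pair taken alone. Its log2 ratio of IP to total RNA was 0.25 in pair 1 and 0.13 in pair 2, and both IP libraries lay above both total RNA libraries, as for 16.9% of tested genes in that direction. It was the single member of which this held. The blocked fit gave 0.19 ± 0.10 (SE), a 1.14-fold difference with a 95% interval from 0.994 to 1.31-fold, and an adjusted p of 0.221. Rises above 1.31-fold and falls below 0.994-fold thus lay outside the interval. With an offset for GC content and length the estimate was 0.0579, below those of Slc32a1, Lhx6, Gad1, Dlx2 and Dlx5.

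Gad1 and Slc32a1 gave different answers in the pairs. Gad1 had a log2 ratio of 0.19 in pair 1 (95% counting interval 0.12 to 0.27) and of −0.0012 in pair 2 (−0.063 to 0.061). Slc32a1 had 0.12 in pair 1 (0.054 to 0.20) and −0.13 in pair 2 (−0.21 to −0.057). For these 2 genes the intervals of the pairs did not overlap. The same held for Slc17a7 (−0.11 to 0.0078 in pair 1, 0.13 to 0.24 in pair 2) but not for Reln (−0.18 to −0.014, −0.16 to 0.059). It is thus not particular to Gad1 and Slc32a1. Such intervals are narrow at high counts and take reads as independent. The share of all tested genes without overlap was not computed. The medians over all tested genes were 0.01 in pair 1 and 0.0075 in pair 2. Blocked estimates were 0.09 ± 0.10 for Gad1 (adjusted p = 0.597, 0.934 to 1.22-fold) and −0.0033 ± 0.098 for Slc32a1 (adjusted p = 0.991, 0.873 to 1.14-fold). The GC and length offset moved Slc32a1 to 0.22 (adjusted p = 0.173), the highest value of a member in that fit.

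Sp9 was the member furthest from 0 in the unpaired and the blocked estimates, while in pair 1 Dlx5 and Dlx6 lay further away. The IP held less of it than total RNA in both pairs, with log2 ratios of −0.34 (counting interval −0.68 to 0.0056) and −0.83 (−1.34 to −0.37). Replicates overlapped, because the IP of replicate 1 (17.9 CPM) exceeded total RNA of replicate 2 (12 CPM). The blocked fit gave −0.55 ± 0.21, a level 0.681 times that of total RNA (95% interval 0.514 to 0.902), with an unadjusted p of 0.00736 and an adjusted p of 0.0514. Its side of the threshold changed with the setting of the blocked fit. The adjusted p was 0.0405 with library size alone and 0.0478 without the most counted gene, but 0.0683 with limma-voom and 0.114 with an offset for GC content and length, and DESeq2 gave none. In the unpaired fit, with −0.49 ± 0.56, the direction turned when IP replicate 2 (0.0494) or total RNA replicate 1 (0.0377) was left out. The fold change lay at the edge of the middle 90% of tested genes, which ran from −0.55 to 0.67.

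The Dlx genes and Lhx6 showed no shared direction. Dlx1 had log2 ratios of −0.32 and 0.17 in the pairs, Dlx2 of 0.04 and −0.07, and Lhx6 of −0.03 and 0.10. Dlx5 had 0.49 and −0.22 and Dlx6 0.52 and −0.59, on 118 and 72 counts in the deepest library, IP replicate 1. Counting intervals of the pairs overlapped for each factor, that of Dlx6 running from −0.25 to 1.43 in pair 1 and from −1.51 to 0.26 in pair 2. Blocked estimates were −0.13 ± 0.19 for Dlx1 (adjusted p = 0.717), −0.02 ± 0.20 for Dlx2 (0.975), 0.11 ± 0.28 for Dlx5 (0.850), −0.01 ± 0.39 for Dlx6 (0.991) and 0.03 ± 0.21 for Lhx6 (0.952). The 95% intervals reached from 0.581 to 1.69-fold for Dlx6 and from 0.703 to 1.183-fold for Dlx1. Differences within these bounds are not excluded by the fit, and the bounds are not limits of detection.

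**Figure D3:**
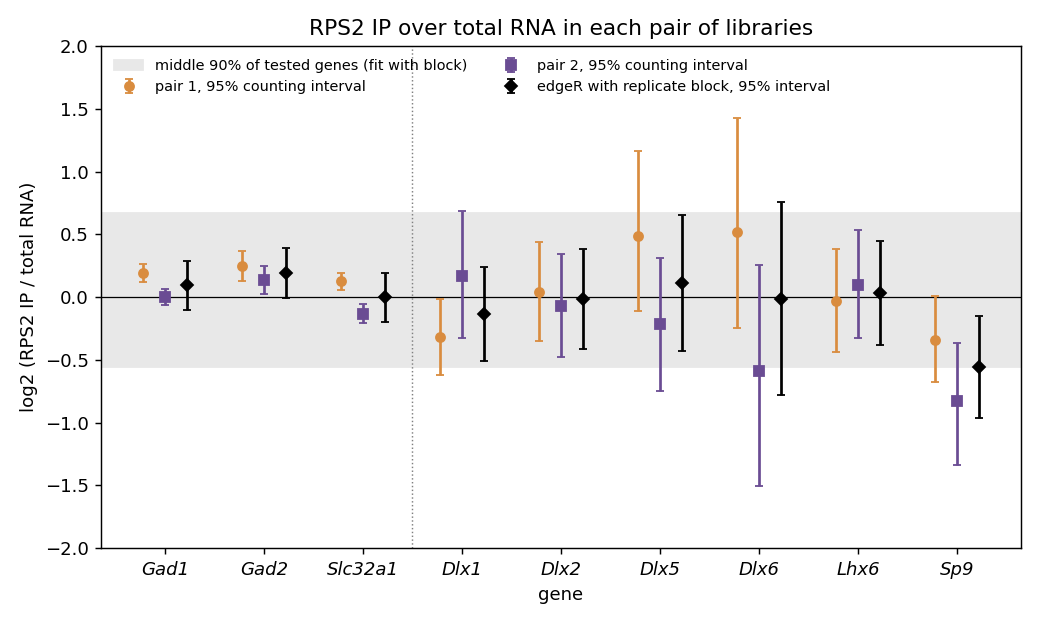
Log2 ratio of RPS2 IP to total RNA for each member in pair 1 (orange) and pair 2 (violet), with exact 95% counting intervals, and from edgeR with the replicate block (black diamonds, 95% interval), over a grey band that holds the middle 90% of tested genes. Intervals are narrow for Gad1, Gad2 and Slc32a1 and wide for the factors, and Sp9 is the one member with a blocked interval that leaves out 0.

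Set side by side, the median log2 fold change was 0.09 over synthesis and transport and 0.01 over the factors in the unpaired fit, against 0.0097 for all tested genes. With the block these were 0.09, −0.01 and 0.01. By pair the medians were 0.19 and 0.0036 in pair 1 and −0.0012 and −0.14 in pair 2, so that synthesis and transport stood above the factors by 0.19 and 0.14. The order was the same in both pairs, and the difference was smaller than the range among the factors. In the unpaired fit the difference of 0.0740 became 0.553 without IP replicate 1 and 0.0378 without IP replicate 2. Genes are not replicates of a condition and 3 against 6 of them allow no more than this description. Only Gad2 and Sp9 kept the sign of their ratio in both pairs, that is 2 of 9 members, against 66.5% of tested genes.

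Start codon surroundings are set beside these ratios as a description only. Sp9 and Slc32a1 share the purine and the G shown above and had blocked log2 fold changes of −0.55 and −0.0033. Lhx6 and Dlx6 have neither and lay at 0.03 and −0.01. Dlx1, with the long leader and its upstream ATG triplets, lay at −0.13. With 9 genes, most of them near 0, no relation could be tested.

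Related genes are given with the calls of the blocked fit, since the unpaired fit called 0 of them. Of 5 genes of GABA reuptake and breakdown 4 passed the filter, 1 was called higher with the block and 0 lower, with a median log2 fold change of 0.11. The gene called was Slc6a11, a GABA transporter found largely on astrocytes, with 147 and 74.3 CPM in the IP against 99.98 and 56.1 CPM in total RNA (0.49 ± 0.11, adjusted p = 2.96e-04). Abat, which encodes the enzyme that breaks GABA down, gave 0.07 ± 0.10 (adjusted p = 0.716). Slc6a11 was called in 6 of 6 blocked fits. The astrocyte markers Slc1a3 and Aqp4 were called higher too, 2 of 7 on their list, against 6.63% of tested genes. Both were called in 4 of 6 blocked fits. With library size only or DESeq2 they missed the threshold, with adjusted p of up to 0.343 and 0.130.

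Other interneuron transcription factors tended below 0. Of 18 listed genes 15 were tested, and 0 were called higher and 2 lower, against 6.63% and 7.55% of tested genes. A fold change below 0 was found for 12 of the 15, against 48.7% of tested genes. The median of the list was −0.20. Of the genes called, Satb1, a chromatin organiser active in maturing somatostatin cells, fell by 0.34 ± 0.11 on the log2 scale (adjusted p = 0.0172), with 86.3 and 69.2 CPM in the IP against 98.2 and 97.6 CPM in total RNA. An offset for GC content and length moved the adjusted p of Satb1 to 0.182, and it was called in 4 of 6 blocked fits. Zeb2 (−0.14 ± 0.12, adjusted p = 0.495) and Maf (−0.20 ± 0.13, 0.333) were not called. Bcl11b, a transcription factor gene from the list of excitatory cortical neuron markers, was called lower as well, by 0.42 ± 0.12, in 4 of 6 blocked fits. On that list 0 of 11 genes were called higher and 2 lower, against the same shares of tested genes. Bcl11b missed the threshold with DESeq2 and with the GC and length offset, which gave −0.20 (adjusted p = 0.333).

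Subtype genes lay above 0 in 11 of 17 cases, against 6325 of 12336 tested genes. All were tested, 3 were called higher and 0 lower with the block, against 6.63% and 7.55% of tested genes, and the median log2 fold change was 0.25. Cck, the gene for the neuropeptide cholecystokinin, rose by 0.58 ± 0.0996 (adjusted p = 5.21e-07), with 242 and 536 CPM in the IP against 182 and 321 CPM in total RNA. Lamp5, which marks neurogliaform cells, rose by 0.47 ± 0.10 (adjusted p = 1.24e-04), and Cnr1, the cannabinoid receptor gene of Cck cells, by 0.35 ± 0.11 (0.00999). Excitatory neurons express Cck, Lamp5 and Cnr1 as well, and in bulk RNA the source cannot be assigned. Cnr1 lost its call with library size alone, with DESeq2 and with the GC and length offset, with an adjusted p of up to 0.237, and Lamp5 with library size alone (0.0644). Cck kept it in 6 of 6 blocked fits. Reln lay at −0.07 ± 0.099 (adjusted p = 0.689).

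**Figure D4:**
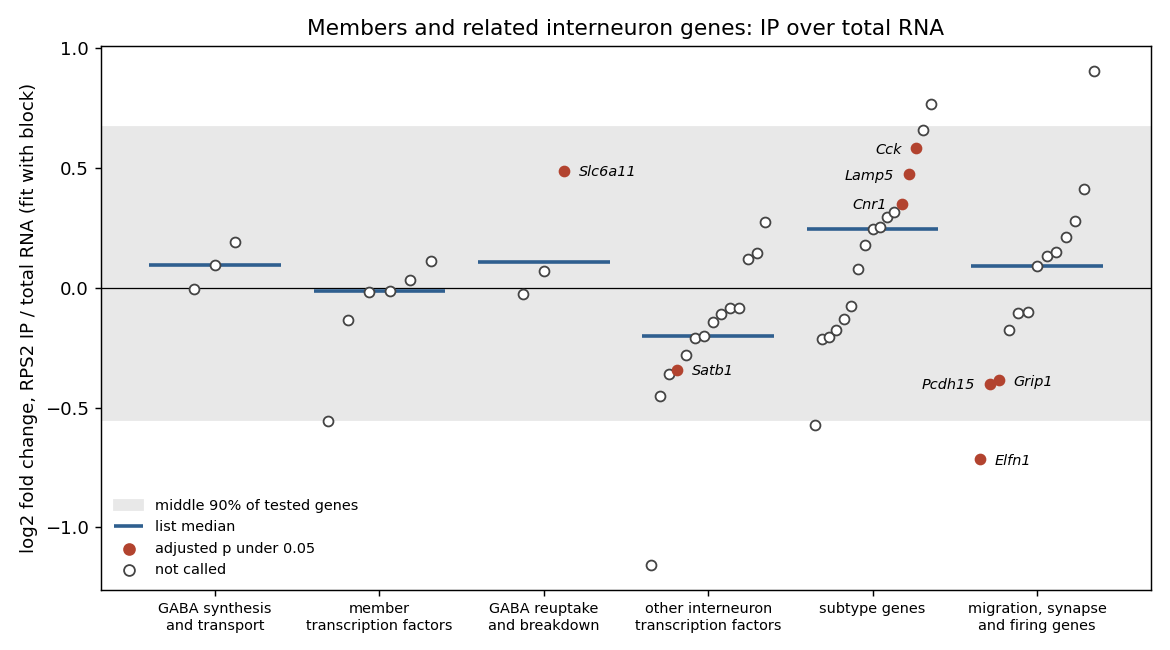
Log2 fold change of RPS2 IP over total RNA from edgeR with the replicate block for tested genes of 6 lists, sorted within a list, filled red where the adjusted p was under 0.05, with a blue line at the median of all tested genes of the list and a grey band for the middle 90% of tested genes. None of the 9 members in the 2 lists at the left is filled, the other interneuron factors sit mostly below 0, and 3 subtype genes are filled above 0.

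Among genes of migration, synapse and firing, 13 of 13 were tested, with 0 called higher and 3 lower, against 6.63% and 7.55% of tested genes, and a median of 0.09. Elfn1, a postsynaptic protein at excitatory inputs of somatostatin cells, fell by 0.72 ± 0.17 (adjusted p = 5.99e-04), from 28.3 and 23.0 CPM in total RNA to 18.3 and 13.1 in the IP. Its groups did not overlap, as for 14.9% of tested genes in that direction. Pcdh15, a protocadherin gene, fell by 0.40 ± 0.13 (0.0219) and Grip1, a scaffold of AMPA receptors, by 0.39 ± 0.13 (0.0240). All 3 missed the threshold with the GC and length offset, with adjusted p of 0.0622, 0.370 and 0.181. Robo2, Cacng2 and Kcnc1, the most abundant of the list, were not called, at −0.18 ± 0.10, −0.10 ± 0.10 and 0.09 ± 0.10.

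Non-coding transcripts read from the opposite strand of the Dlx loci were counted apart from their neighbours. Dlx1as had 80 and 26 counts in the IP against 6 and 11 in total RNA, that is 5.78 and 2.34 CPM against 1.34 and 1.81, and both IP libraries lay above both total RNA libraries. Its log2 ratio was 1.94 in pair 1 and 0.33 in pair 2, and the blocked estimate of 1.22 ± 0.47 had an adjusted p of 0.0621. Dlx6os1, also known as Evf2, had 90 and 37 counts in the IP against 23 and 17 in total RNA, with a blocked estimate of 0.30 ± 0.36 (adjusted p = 0.656). Neither was called. Dlx1, on the other strand, had 313 and 105 counts in the IP against 127 and 51 in total RNA.

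The mean profile of the 9 members across the 4 libraries, in centred log2 CPM, was 0.27 and −0.30 in the IP against 0.17 and −0.14 in total RNA. Among 7761 tested genes with a mean of at least 10 CPM, the nearest by root mean square difference over these 4 values were Masp1 (0.0145), Cadps2 (0.0147), Scn2a (0.0204), Kmt2c (0.0266) and Islr2 (0.0282). Each was higher in replicate 1 in both kinds of library, which follows from the profile they were matched to. That mean does not stand for every member. In both kinds of library 5 of the 9 were higher in replicate 1 and 1 in replicate 2.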

How the data were processed

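Raw counts of reads per gene were deposited by the authors for 2 RPS2 IP and 2 total RNA libraries. Per the study's methods and the file headers, the authors trimmed adapters, aligned single-end reads to mm10 with STAR and counted them by strand with featureCounts 1.5.3 against the mm10 annotation of a single-cell reference package, version 3.0.0. Reads at several loci or in several genes were not counted, and removing PCR duplicates is not mentioned, so that intervals cover counting error only. Identifiers were matched to GENCODE M21 (30934 of 31053).

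Testing used edgeR 4.0.16 under R 4.3.3 (filterByExpr, TMM, glmQLFit, glmQLFTest, two-sided, Benjamini-Hochberg over 12336 genes, threshold 0.05). All fold changes put IP over total RNA. Within-pair ratios are differences of log2 CPM with a prior count of 2, and their 95% counting intervals come from the exact binomial interval of the IP share of both counts. Other 95% intervals are the estimate ± 1.96 SE. DESeq2 1.42.0 and limma 3.58.1 (voom) were alternatives. Nothing in the labels says that replicates were separate cultures beyond their number, so p-values refer to these samples only. In the blocked fit they rest on a dispersion trend over all genes and not on the spread of the single gene.

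By the study's methods total RNA was taken from samples ahead of the immunoprecipitation. That same-numbered libraries share a sample was inferred from their numbers, and their deviations from the group means correlated at 0.733 over genes. The replicate block was therefore added in a second fit, with a biological coefficient of variation of 7.93% against 29.7% without it. Its prior degrees of freedom were infinite, so each gene took the trend's dispersion. Both fits were run on simulated data of 12336 genes, drawn with a single dispersion from the blocked fit and the replicate differences kept.

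Members and gene lists were chosen with earlier results of these data known. Named were the members, the 3 most abundant tested genes and each called gene of every further list, both antisense transcripts and the 5 nearest profiles, apart from a few genes that are not reported here. Any other gene, among them the single markers and Gm42418, was picked after its values were seen. Protein sequences were not used here.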

Additional observations from a re-analysis of the deposited data

How the results depend on the processing

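Over all genes, the unpaired fit called 0 higher and 0 lower, DESeq2 without the block 5 lower, and a fit with no low-count filter 14 lower. With the replicate block the counts were 818 higher and 931 lower. Further blocked fits gave 283 and 878 (library size only), 158 and 382 (DESeq2, with 7653 adjusted p-values missing, 6 of them of members), 580 and 317 (offset for GC and length), 685 and 927 (limma-voom) and 820 and 947 (most counted gene left out). Leaving out 1 library in turn gave 1 to 8 genes lower. Sp9 was the 1 member called lower, in the blocked fits with library size only (−0.631) and with the most counted gene left out (−0.557). In the other settings 0 members were called lower, and 0 were called higher in any.

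Medians of the factors moved to −0.0986 with library size only and to −0.0942 with it and the block. Without 1 library they ran from −0.421 to 0.202, those of synthesis and transport from 0.132 to 0.240, and the difference of the medians from 0.0378 to 0.553. That difference, 0.0740 unpaired, was 0.108 with the block, 0.120 with the block in DESeq2 and 0.107 in the blocked fit without the most counted gene. It was above 0 in each setting run.

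Signs of members near 0 turned. With library size only, Gad1 was −0.0282, Slc32a1 −0.0887, Dlx5 −0.0272, Dlx6 −0.0923 and Lhx6 −0.0504. Slc32a1 was −0.0012 with median-ratio factors and −0.00115 with DESeq2. Dlx2 was 0.00415 with at least 10 counts in every library and 0.0170 with no filter. With the block Slc32a1 was −0.00325 and Dlx6 −0.0125. Blocked with library size only, Slc32a1 was −0.0861, Dlx6 −0.0914 and Lhx6 −0.0497. Blocked in DESeq2, Slc32a1 was −0.0217 and Dlx6 −0.0539. The blocked fit with the GC and length offset gave Dlx2 0.120 and Dlx6 −0.145, and moved Gad2 from 0.189 with the block alone to 0.0579 and Slc32a1 to 0.222, limma-voom gave Slc32a1 −0.00205, and the blocked fit without the most counted gene gave Slc32a1 −0.00555 and Dlx6 −0.0140. Leaving out 1 library, which breaks a pair, gave ranges of −0.0776 to 0.269 for Gad1, 0.132 to 0.240 for Gad2, −0.304 to 0.271 for Slc32a1, −0.948 to 0.936 for Dlx1, −0.223 to 0.173 for Dlx2, −0.0929 to 0.384 for Dlx5, −0.619 to 0.528 for Dlx6, −0.151 to 0.226 for Lhx6 and −1.38 to 0.0494 for Sp9. Prior counts of 0.5 and 5 moved each pair ratio by less than the spread between the pairs. The causes were not tested. The factors rest on 16 to 313 counts a library, which bounds the precision of their ratios.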

Other observations

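Levels of some subtype genes are given here, although in bulk RNA they do not show which interneurons were present. These examples were picked after their values were seen. Npy and Sst, neuropeptide genes of cells that share the Lhx6 lineage, had 184 ± 7.44 and 76.4 ± 13.3 CPM per kb in total RNA (SD, n = 2), both above Gad2 with 27.2 ± 0.0537. Vip, a neuropeptide gene of cells from the caudal eminence, had 4.16 ± 0.883 CPM per kb, and Pvalb, the calcium-binding protein gene of fast-spiking cells, 2.47 ± 0.14, on 12 and 15 counts in total RNA and 74 and 40 in the IP. Cck, with 193 ± 75.5 CPM per kb in total RNA, and Lamp5, with 49.7 ± 8.92, also lay above Gad2. Npy, Sst, Vip and Pvalb were not called with the block. There Npy lay at 0.25 ± 0.11 (adjusted p = 0.106), Sst at 0.18 ± 0.12 (0.347), Vip at 0.32 ± 0.19 (0.305) and Pvalb at 0.77 ± 0.41 (0.222). Cort, the cortistatin gene, differed between the replicates in the direction opposite to Dlx1, with 15.4 and 39.6 CPM in total RNA and 14.2 and 33.1 in the IP.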
